A study of Rattus norvegicus with 9 samples.

Results

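The genes described here are 40 rat genes of the cell division cycle, measured in bladder RNA from rats with partial bladder outlet obstruction (pBOO), from sham-operated rats and from obstructed rats given tolterodine. They are 14 genes of DNA replication, 21 genes of mitosis, 3 G1 cyclin or checkpoint genes (Ccnd1, Ccne1, Chek1) and 2 inhibitors of cyclin-dependent kinases (CDKs), Cdkn1a and Cdkn2c. They were chosen by name, with earlier results of these data known, from 15168 genes with at least 1 probe on the array. The brightest probe of a gene over the 9 arrays stood for it. Of the 40, 35 were measured. Mcm5, Bub1b, Top2a and Mki67 had no probe matched to these names, and Ccnb2 was lost because the scanner software flagged its spots as non-uniform or as outliers. Their measured values below therefore describe 13 replication, 17 mitosis, 3 G1 or checkpoint and 2 inhibitor genes.

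All animals were female, and bladders were taken at 3 weeks. The sham group was operated on without tying the urethra. In the pBOO group a ligature held the proximal urethra around a thin catheter, and the third group had the same obstruction plus tolterodine, which blocks muscarinic acetylcholine receptors. Each group has 3 arrays; the labels give no age, no dose or length of drug treatment, and no statement of whether an array holds 1 animal or a pool. There were 5 specimens examined per group, so p-values measure the spread between these arrays, which may be technical. The letters used for obstruction and sham operation in the treatment protocol are swapped relative to the codes of the arrays titled pBOO and sham. The titles were followed, and every direction given here rests on them.

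The arrays fell into 3 sets by scan time, and each set was taken as a slide. The first slide held sham 2, sham 3, tolterodine 1 and tolterodine 2, the second held the 3 pBOO arrays with sham 1, and tolterodine 3 was alone, so no slide held both pBOO and tolterodine arrays. Fits with slide as a fixed block therefore set the pBOO arrays against sham 1 alone, and tolterodine 1 and 2 against sham 2 and 3. The 75th percentile of the processed intensity was between 523 and 1441 per array. Between 72.1% and 80.1% of spots exceeded background clearly by the scanner software's own flag, and the number of arrays limits the precision. All 11 measured urothelial markers and all 7 measured smooth muscle markers were well above background on all 9 arrays.

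DNA replication starts at origins that are licensed in G1, when Cdc6 helps to load the ring of Mcm2 to Mcm7. In S phase Cdc45 and the GINS complex turn that ring into the active helicase, Pcna clamps the polymerase to the template, and Tk1, Tyms and ribonucleotide reductase supply deoxynucleotides. Entry into mitosis depends on Cdk1 with cyclins A and B, and Plk1, the Aurora kinases, kinesins and the spindle checkpoint carry chromosomes to the daughter cells. Many replication genes are known targets of E2F factors, while many mitotic genes are known to be controlled through CCAAT boxes and the cell cycle homology region (CHR). Cdkn1a (p21) is a p53 target that inhibits CDKs, and Cdkn2c (p18) inhibits Cdk4 and Cdk6. The normal adult bladder urothelium is known to divide slowly.

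The promoters show what letters the replication and mitosis genes carry near their start sites. RefSeq promoters of the assembly GRCr8, from 250 bases before to 50 bases after the start, were held for 32 of the 40 genes; Cdc6, Mcm4, Rrm2, Ccna2, Foxm1, Aurkb, Ube2c and Ccnd1 had none in the table. Both strands were searched for E2F letters, which begin TT and end CGC around the central pair CC (written out, TTCCCGC), around the pair CG (as TTCGCGC), around the pair GC (as TTGCCGC) or around GG (as TTGGCGC). They were also searched for CHR letters, either as TTTGAA or in the form with a central CG, written TTCGAA, and for the box CCAAT. Matches of the E2F forms on opposite strands may overlap, and TTCGAA reads the same on both strands and was counted once. The promoters printed here are those of the 3 replication genes (Gins1, Tk1, Cdc45) and the 3 mitosis genes (Birc5, Plk1, Ttk) with the largest falls in pBOO among those in the table. They lie at chr3:160184670-160184969 (Gins1, plus strand), chr10:103544728-103545027 (Tk1, minus strand), chr11:95689928-95690227 (Cdc45, plus strand), chr10:103571896-103572195 (Birc5, plus strand), chr1:186147408-186147707 (Plk1, plus strand) and chr8:93634389-93634688 (Ttk, plus strand). Each is written along its gene's strand, and capitals mark every match to the searched letters on either strand:
Gins1: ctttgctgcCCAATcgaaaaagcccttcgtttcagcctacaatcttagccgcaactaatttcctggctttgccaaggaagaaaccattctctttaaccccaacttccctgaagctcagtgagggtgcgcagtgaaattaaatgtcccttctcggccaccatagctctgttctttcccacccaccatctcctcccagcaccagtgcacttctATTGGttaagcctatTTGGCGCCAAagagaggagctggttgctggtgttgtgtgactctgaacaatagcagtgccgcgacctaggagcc
Tk1: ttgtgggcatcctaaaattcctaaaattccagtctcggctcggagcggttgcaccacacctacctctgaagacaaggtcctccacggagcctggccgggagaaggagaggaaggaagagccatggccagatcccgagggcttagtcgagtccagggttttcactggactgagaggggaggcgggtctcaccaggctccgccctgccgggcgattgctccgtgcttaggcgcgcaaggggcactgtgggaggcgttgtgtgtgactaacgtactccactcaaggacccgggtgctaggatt
Cdc45: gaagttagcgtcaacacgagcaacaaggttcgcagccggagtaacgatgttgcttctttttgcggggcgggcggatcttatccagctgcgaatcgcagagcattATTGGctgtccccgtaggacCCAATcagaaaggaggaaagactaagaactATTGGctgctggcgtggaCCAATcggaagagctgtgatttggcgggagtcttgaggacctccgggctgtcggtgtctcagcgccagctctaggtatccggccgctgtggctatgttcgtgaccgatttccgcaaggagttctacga
Birc5: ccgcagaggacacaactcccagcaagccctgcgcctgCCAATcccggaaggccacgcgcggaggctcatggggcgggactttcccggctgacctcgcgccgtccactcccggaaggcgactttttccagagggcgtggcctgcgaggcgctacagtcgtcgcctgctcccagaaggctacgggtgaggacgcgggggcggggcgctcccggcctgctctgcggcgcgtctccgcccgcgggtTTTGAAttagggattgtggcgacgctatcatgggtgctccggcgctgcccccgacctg
Plk1: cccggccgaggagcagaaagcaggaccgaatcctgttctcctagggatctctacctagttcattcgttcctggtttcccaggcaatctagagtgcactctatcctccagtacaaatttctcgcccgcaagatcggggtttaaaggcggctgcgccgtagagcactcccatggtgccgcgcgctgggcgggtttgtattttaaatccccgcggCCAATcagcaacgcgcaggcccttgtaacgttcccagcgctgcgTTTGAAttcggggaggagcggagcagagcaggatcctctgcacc
Ttk: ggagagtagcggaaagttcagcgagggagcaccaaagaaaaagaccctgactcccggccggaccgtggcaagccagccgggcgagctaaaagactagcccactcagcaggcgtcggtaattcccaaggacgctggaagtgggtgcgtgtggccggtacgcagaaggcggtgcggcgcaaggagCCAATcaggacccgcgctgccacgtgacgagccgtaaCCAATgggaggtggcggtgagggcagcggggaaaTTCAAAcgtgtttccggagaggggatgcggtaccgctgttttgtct

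Of the 3 replication promoters, Gins1 carries E2F and CCAAT letters, Cdc45 carries CCAAT letters alone and Tk1 carries none of the letters searched. Birc5, Plk1 and Ttk carry CHR and CCAAT letters and no E2F letters. In Gins1 the E2F letters start 24 bases before the start on the plus strand and overlap a match on the minus strand. In Birc5 the CHR letters begin 8 bases before the start, in Plk1 7 bases and in Ttk 5 bases after it. Over the whole set, 8 of 11 replication promoters (72.7%; all but Cdc45, Pcna and Tk1) and 3 of 17 mitosis promoters (17.6%) held E2F letters, against 9.52% of all 33469 promoters in the table and 16.1% of the 9034 belonging to genes tested here. CHR letters were in 3 of 11 replication promoters (27.3%) and 12 of 17 mitosis promoters (70.6%), against 19.7% of all promoters and 14.1% of those of tested genes. CCAAT was common to both classes, in 8 of 11 (72.7%) and 13 of 17 (76.5%), against 37.5% and 38.1%. Cdkn1a and Cdkn2c had neither CHR nor CCAAT letters, and only Cdkn2c had E2F letters. The replication promoters include that of Mcm5, and the mitosis promoters those of Ccnb2, Bub1b, Top2a and Mki67, which are not among the measured genes. The 17 mitosis promoters are therefore not those of the 17 measured mitosis genes. Other forms of these sites were not searched. A match describes letters in this window and is not a measured binding site.

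In pBOO bladders 29 of the 35 measured genes fell and 1 gene, Ccnd1, rose against sham. The falls took in 12 of 13 replication genes, with a median log2 fold change of -1.43 over all 13, and 15 of 17 mitosis genes, with a median of -1.71 over all 17. Over all 11049 genes tested, 21.7% passed as lower and 20.8% as higher, and the median was -0.04. A gene passed at an adjusted p under 0.05 (limma, Benjamini-Hochberg over all genes tested). Levels are log2 intensities relative to each array's 75th percentile, so 0 is that percentile, and they are not compared between genes because probes differ in brightness. For 30 members all 3 pBOO arrays lay below all 3 sham arrays, against 29.8% of all genes, and for 2 members, Ccnd1 and Cdc25b, they all lay above, against 25.9%. In whole-bladder RNA, fewer dividing cells and less of these RNAs per cell cannot be told apart.

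**Figure D1:**
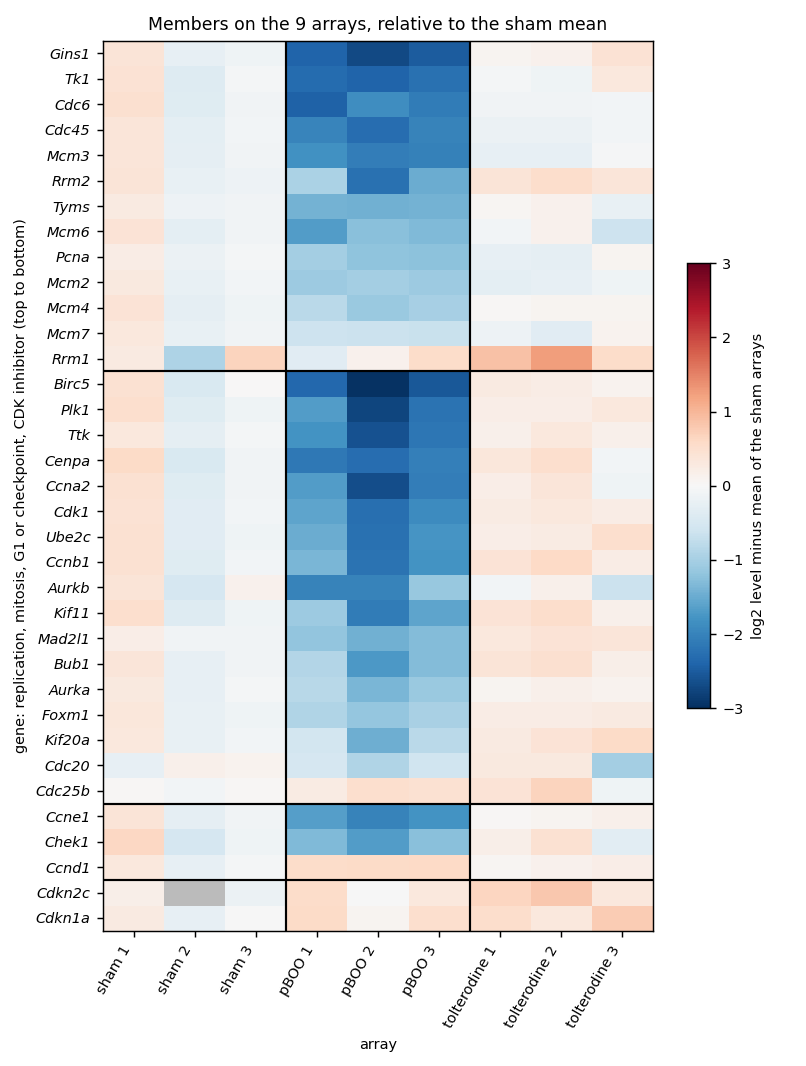
Each cell is the log2 level of a member (rows, by class) on 1 array (columns) minus the mean of the sham arrays, from -3 (blue) to 3 (red), with a flagged value in grey (Cdkn2c on sham 2, whose sham mean is over 2 arrays). The replication and mitosis rows are blue on the 3 pBOO arrays except Cdc25b, above its sham mean on all 3, and Rrm1, above it on pBOO 2 and 3; sham 1 was the highest sham array for 12 of 13 replication and 15 of 17 mitosis genes.

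Among the licensing genes, Cdc6 lay at -0.14, -0.98 and -0.73 on the sham arrays, at -3.04, -2.48 and -2.72 on the pBOO arrays and at -0.72, -0.73 and -0.70 on the tolterodine arrays. All pBOO arrays were below all others, and the difference from sham was -2.13 (SE 0.22, adjusted p = 0.000156). The Mcm ring fell in all 5 of its measured subunits, but by unequal amounts. Mcm3 fell by 1.97 and Mcm6 by 1.42 on the log2 scale (adjusted p = 7.23e-05 and 0.00203). Mcm2 fell by 1.06, Mcm4 by 0.97 and Mcm7 by 0.64 (adjusted p = 0.000536, 0.0028 and 0.0139). With slide as a fixed block, which leaves sham 1 alone against pBOO, Mcm7 fell by 0.97. Probe ranges differ, so these unequal log2 changes are not a measure of subunit ratios. Further probes of Mcm3 and Mcm2 also fell (log2 fold changes of -2.13 and -0.81, adjusted p = 2.96e-05 and 0.0191), and that of Mcm4 was at -0.65 (adjusted p = 0.052). With the probes of each gene averaged, Mcm2 was at -0.94 and no longer passed (adjusted p = 0.0585).

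The helicase activators fell strongly, and Gins1 fell most of all replication genes. Gins1, a GINS subunit whose promoter is printed above, lay at -0.71, -1.34 and -1.21 in sham, at -3.49, -3.78 and -3.59 in pBOO and at -1.01, -0.96 and -0.64 with tolterodine. The pBOO arrays were more than a log2 unit below all others. The difference from sham was -2.54 (SE 0.18, adjusted p = 2.9e-05), a 5.8-fold lower level. Cdc45, which joins GINS on the Mcm ring, lay at -1.68, -2.34 and -2.12 in sham, at -4.03, -4.33 and -4.05 in pBOO and at -2.21, -2.23 and -2.12 with tolterodine. Its groups did not overlap between pBOO and either other group, and it fell by 2.09 against sham (SE 0.17, adjusted p = 5.28e-05), or by 1.31 with normexp (adjusted p = 0.00051). Pcna, the sliding clamp, fell by 1.16 (SE 0.15, adjusted p = 0.000491).

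In nucleotide supply, Tk1, which phosphorylates thymidine, lay at 1.55, 0.72 and 1.04 in sham, at -1.20, -1.29 and -1.14 in pBOO and at 1.04, 0.98 and 1.41 with tolterodine. The pBOO values were within 0.15 of each other and below all the others. Tk1 fell by 2.32 (SE 0.21, adjusted p = 8.38e-05), a 4.98-fold lower level. Tyms, thymidylate synthase, fell by 1.43, and Rrm2, the small subunit of ribonucleotide reductase, fell by 1.55 (SE 0.30, adjusted p = 0.00365), with a further Rrm2 probe at -1.53. The Rrm2 difference was -1.95 (adjusted p = 0.0704) within the slide that held pBOO and sham 1. Rrm1, the large subunit of the same enzyme, was the only replication gene that did not pass. It was dim, at -5.48, -6.66 and -5.08 in sham, -6.09, -5.61 and -5.20 in pBOO and -4.87, -4.49 and -5.20 with tolterodine, and only 2 of 3 sham and 2 of 3 pBOO values were well above background. The groups overlapped, the difference between pBOO and sham was 0.11 (SE 0.40, adjusted p = 0.839) and its 95% interval ran from -0.80 to 1.02.

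Among the mitosis genes, the 4 with the largest falls were Birc5, Plk1, Ttk and Cenpa. Birc5 (survivin), a subunit of the chromosomal passenger complex, lay at -0.80, -1.72 and -1.24 in sham, at -3.60, -4.22 and -3.80 in pBOO and at -0.99, -1.04 and -1.14 with tolterodine. The lowest sham array was well above the highest pBOO array, and Birc5 fell by 2.62 (SE 0.24, adjusted p = 8.39e-05), a 6.16-fold lower level. Plk1, a kinase of mitotic entry and spindle assembly, lay at -0.72, -1.58 and -1.33 in sham, at -2.89, -3.96 and -3.42 in pBOO and at -1.01, -1.01 and -0.88 with tolterodine. Its pBOO arrays spread over more than a log2 unit yet stayed below all others, with a fall of 2.21 (SE 0.29, adjusted p = 0.000497). Ttk (Mps1), a kinase of the spindle checkpoint, lay at -0.73, -1.31 and -1.11 in sham, at -2.85, -3.67 and -3.21 in pBOO and at -0.90, -0.74 and -0.90 with tolterodine. It fell by 2.19 (SE 0.22, adjusted p = 0.000135), again without overlap. Cenpa, the centromeric histone H3 variant, lay at -3.11, -4.15 and -3.80 in sham, at -5.84, -5.98 and -5.73 in pBOO and at -3.35, -3.18 and -3.77 with tolterodine. Only 2 of its 3 pBOO values were well above background, and Cenpa fell by 2.16 (SE 0.26, adjusted p = 0.000321), or by 0.91 with normexp background correction (adjusted p = 0.00856).

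The cyclins and kinase of mitotic entry fell together. Ccna2 fell by 2.15 (a further probe was at -2.24), Cdk1 by 1.91 and Ccnb1 by 1.80 on the log2 scale, with adjusted p-values of 0.000553, 0.00027 and 0.000821. Ccnb2 had been set aside for its flags; with flagged spots kept it lay at -1.32, -2.23 and -2.04 in sham, at -3.54, -4.29 and -4.02 in pBOO and at -1.44, -1.19 and -1.78 with tolterodine. That is a change of -2.09 (SE 0.28, adjusted p = 0.000564) in the same direction as Ccnb1. Foxm1, a transcription factor of the mitotic genes, fell by 1.01 (adjusted p = 0.00125).

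Genes of the spindle and of exit from mitosis fell as well. Ube2c, the ubiquitin-conjugating enzyme of the anaphase-promoting complex, fell by 1.83, the spindle motor Kif11 by 1.59 and the cytokinesis motor Kif20a by 0.94 (adjusted p = 0.000561, 0.0027 and 0.0129). The checkpoint genes Mad2l1 and Bub1 fell by 1.31 and 1.30 (adjusted p = 0.000118 and 0.00251), and the Aurora kinase Aurka by 1.11 (adjusted p = 0.00131). Aurkb fell by 1.71 (SE 0.32, adjusted p = 0.00303) but was well above background on only 1 of 3 pBOO arrays, and with normexp it fell by 0.70 (adjusted p = 0.0428). Within the slide that held pBOO and sham 1, Kif20a was at -1.25 and did not pass (adjusted p = 0.0954).

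The mitosis genes that did not pass were Cdc20 and Cdc25b. Cdc20, an activator of the anaphase-promoting complex, lay at 1.49, 1.88 and 1.83 in sham, at 1.22, 0.83 and 1.13 in pBOO and at 2.02, 2.02 and 0.71 with tolterodine. All pBOO arrays were below all sham arrays, but the third tolterodine array stood far below the other two. The difference between pBOO and sham was -0.67 (SE 0.33, adjusted p = 0.13), and without tolterodine 3, which enters the shared estimate of spread, the same difference passed (adjusted p = 0.00846). Cdc25b, a phosphatase that activates Cdk1, lay at -1.86, -1.97 and -1.85 in sham, at -1.63, -1.39 and -1.43 in pBOO and at -1.48, -1.21 and -2.02 with tolterodine. It was the only mitosis gene with a value above 0 for pBOO minus sham, 0.41 (SE 0.19, adjusted p = 0.118), and it passed without tolterodine 3 (adjusted p = 0.023). Its other probe, well above background on 7 of 9 arrays, was at 1.13 (SE 0.21, adjusted p = 0.00315), and with both probes averaged Cdc25b rose by 0.77 (adjusted p = 0.00779).

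**Figure D2:**
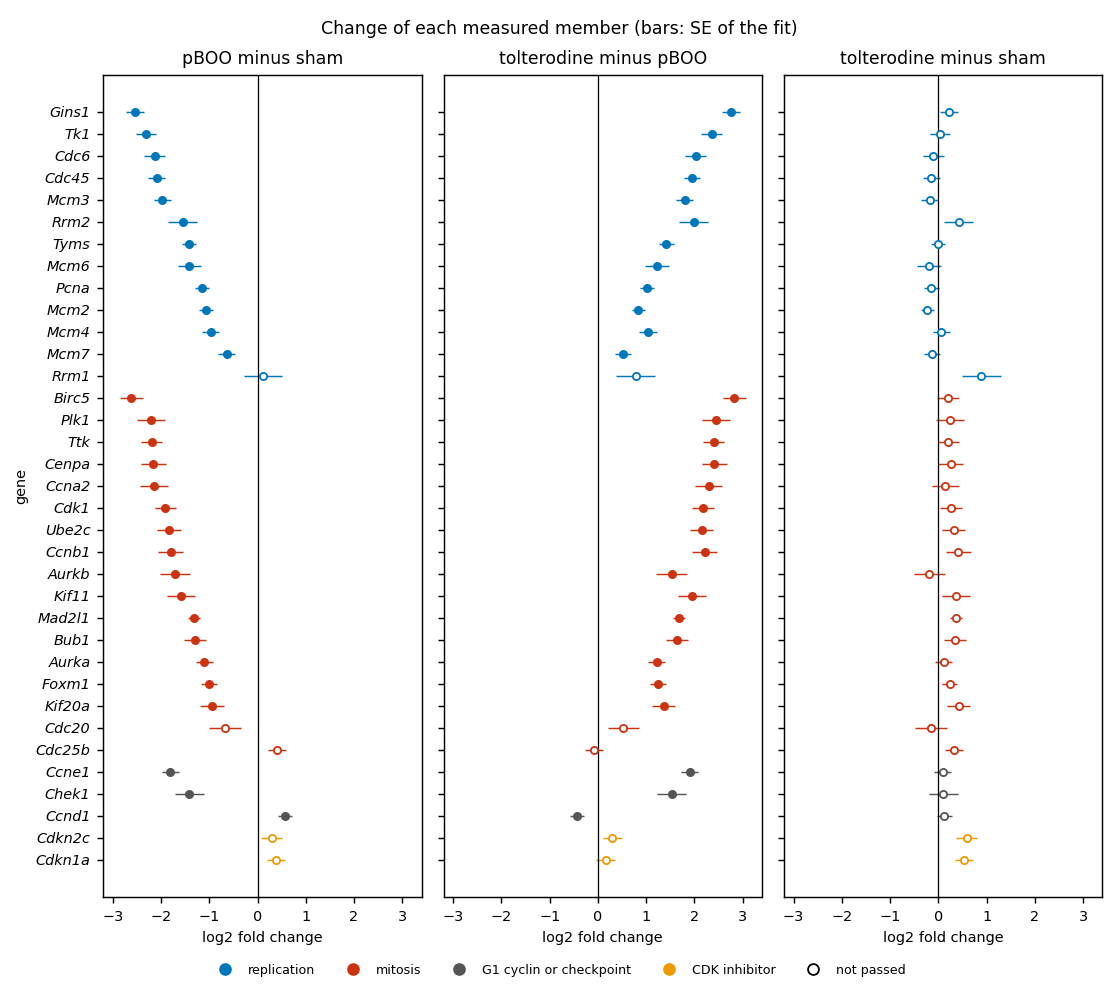
Points are the log2 fold changes of the 35 measured members in the 3 comparisons, with bars of 1 standard error of the fit and filled points for genes that passed. In pBOO minus sham the points run from -2.62 (Birc5) to 0.57 (Ccnd1), in tolterodine minus pBOO the members that passed in both lie on the opposite side while Rrm1, Cdkn1a and Cdkn2c lie above 0 in both, and in tolterodine minus sham they are open, since 0 members passed there.

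The G1 cyclins moved in opposite directions in pBOO. Ccne1 (cyclin E1), which drives entry into S phase, lay at -0.07, -0.72 and -0.57 in sham, at -2.10, -2.45 and -2.24 in pBOO and at -0.41, -0.37 and -0.31 with tolterodine. It fell by 1.81 (SE 0.18, adjusted p = 0.000118). Ccnd1 (cyclin D1), which couples growth signals to Cdk4 and Cdk6, lay at 0.07, -0.50 and -0.30 in sham, at 0.31, 0.32 and 0.35 in pBOO and at -0.19, -0.12 and -0.04 with tolterodine. The pBOO arrays were all above the others and very close together, and Ccnd1 rose by 0.57 (SE 0.15, adjusted p = 0.0135). That rise was 0.26 within the slide that held pBOO and sham 1 (adjusted p = 0.188) and 0.54 without sham 3 (adjusted p = 0.0521), and neither value passed; with slide as a random block it was 0.36 and passed (adjusted p = 0.0463). Chek1, the checkpoint kinase that responds to stalled replication, lay at -3.24, -4.36 and -3.98 in sham, at -5.19, -5.53 and -5.11 in pBOO and at -3.69, -3.39 and -4.18 with tolterodine. It fell by 1.42 (SE 0.30, adjusted p = 0.00535), or by 0.74 with normexp (adjusted p = 0.0288).

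Neither CDK inhibitor, by the probe that stands for it, passed in any of the 3 comparisons. Cdkn1a lay at 3.71, 3.18 and 3.41 in sham, at 4.00, 3.51 and 3.93 in pBOO and at 3.95, 3.76 and 4.20 with tolterodine, so the pBOO and sham arrays overlapped. The difference between pBOO and sham was 0.38 (SE 0.19, adjusted p = 0.14), with a 95% interval from -0.05 to 0.81, and with quantile normalization it was 0.80 and passed (adjusted p = 0.00642). A dimmer Cdkn1a probe gave the opposite direction. It lay at 2.23, 2.01 and 2.08 in sham, at 1.45, 1.87 and 1.75 in pBOO and at 2.21, 2.17 and 2.27 with tolterodine, a difference of -0.41 for pBOO minus sham (SE 0.13, adjusted p = 0.0327) and of 0.53 for tolterodine minus pBOO (adjusted p = 0.0124). The probes of Cdkn1a thus disagreed, and no direction is given for it. Cdkn2c lay at -2.94 and -3.29 on the 2 unflagged sham arrays, at -2.55, -3.12 and -2.79 in pBOO and at -2.47, -2.31 and -2.79 with tolterodine. Its difference between pBOO and sham was 0.29 (SE 0.22, adjusted p = 0.31), with a 95% interval from -0.20 to 0.79.

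**Figure D3:**
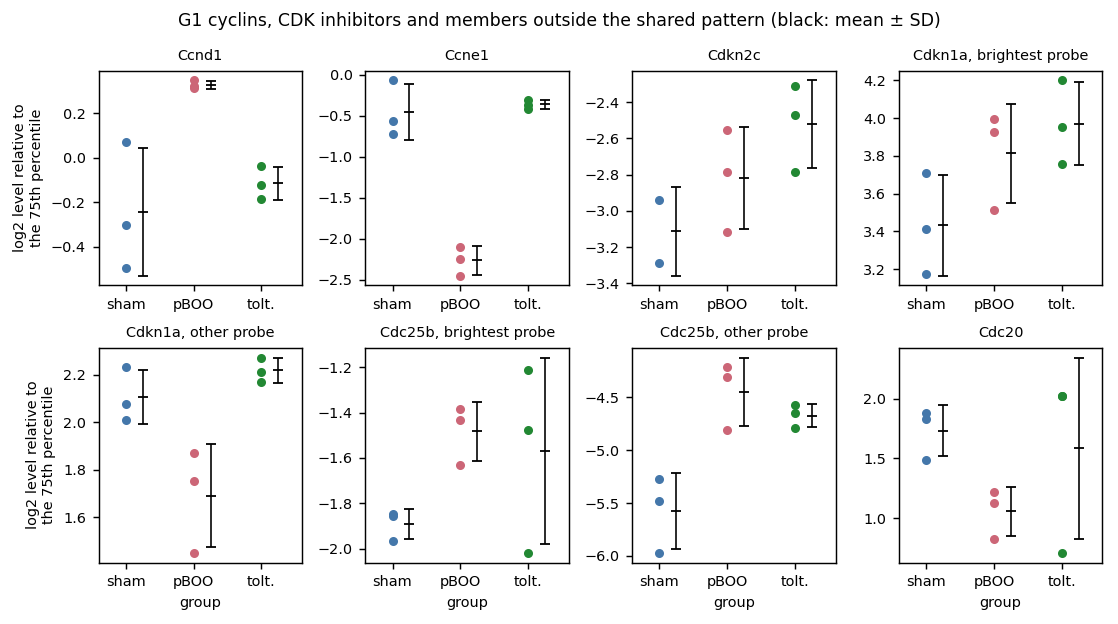
Points are log2 levels per array relative to the 75th percentile, with mean and SD in black, for Ccnd1, Ccne1, Cdkn2c, Cdc20 and both probes of Cdkn1a and Cdc25b. The panels have their own vertical ranges; the 2 Cdkn1a probes move in opposite directions from sham to pBOO, and the third tolterodine array of Cdc20 lies at 0.71, below the other tolterodine arrays at 2.02.

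Replication and mitosis genes were then set against each other on each array. The mean of the 13 replication genes, relative to the sham mean, was 0.36, -0.31 and -0.04 on the sham arrays, -1.45, -1.55 and -1.43 on the pBOO arrays and 0.00, 0.06 and 0.06 with tolterodine. The mean of the 17 mitosis genes was 0.34, -0.28 and -0.06 in sham, -1.28, -1.87 and -1.47 in pBOO and 0.26, 0.36 and 0.07 with tolterodine. In both classes the pBOO arrays lay below all others, and the tolterodine arrays lay within or, for tolterodine 2 in mitosis, just above the range of the sham arrays. The mitosis mean minus the replication mean was -0.01, 0.03 and -0.01 in sham, 0.17, -0.32 and -0.04 in pBOO and 0.25, 0.30 and 0.01 with tolterodine. These differences overlapped between groups, with means of -0.06 ± 0.24 (SD, n = 3) in pBOO and 0.19 ± 0.15 (SD, n = 3) with tolterodine. The class means are descriptions without a test.

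The classes differed in how they varied among the pBOO arrays. The median SD within pBOO was 0.150 for replication genes and 0.388 for mitosis genes, against 0.160 for all genes with a value on every array. Within sham it was 0.335 and 0.388, against 0.199, and with tolterodine 0.186 and 0.156, against 0.168. The mitosis spread was thus as wide in sham as in pBOO. Of the 17 mitosis genes, 14 were highest on pBOO 1 and 16 were lowest on pBOO 2, whereas 8 of 13 replication genes were highest on pBOO 1 and 7 lowest on pBOO 2. Over all genes, 30.9% were highest on pBOO 1 and 36.3% lowest on pBOO 2. The median of pBOO 1 minus pBOO 2 was 0.67 for mitosis genes, 0.10 for replication genes and -0.10 for all genes. Tyms shows the narrow replication spread, at -2.46, -2.49 and -2.47 in pBOO, and Ccna2 the wider mitotic one, at -2.25, -3.24 and -2.65. Rrm2 spread like the mitosis genes, at 0.05, -1.24 and -0.49.

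Within sham both classes followed the same order of arrays. Sham 1 was highest for 12 of 13 replication and 15 of 17 mitosis genes, and sham 2 was lowest for 13 of 13 and 15 of 17. Over all genes, 50.5% were highest on sham 1 and 45.5% lowest on sham 2. Sham 1 is also the array that shared a slide with the pBOO arrays. Against sham 1 alone, within that slide, the median difference was -1.83 for replication and -2.11 for mitosis genes, and 27 of 35 members passed as lower, against 12.6% of all genes tested there. Gins1 was at -2.91 and Birc5 at -3.07 in that comparison (adjusted p = 0.00456 and 0.0082); sham 1 is a single array there, assumed to vary like the pBOO arrays.

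**Figure D4:**
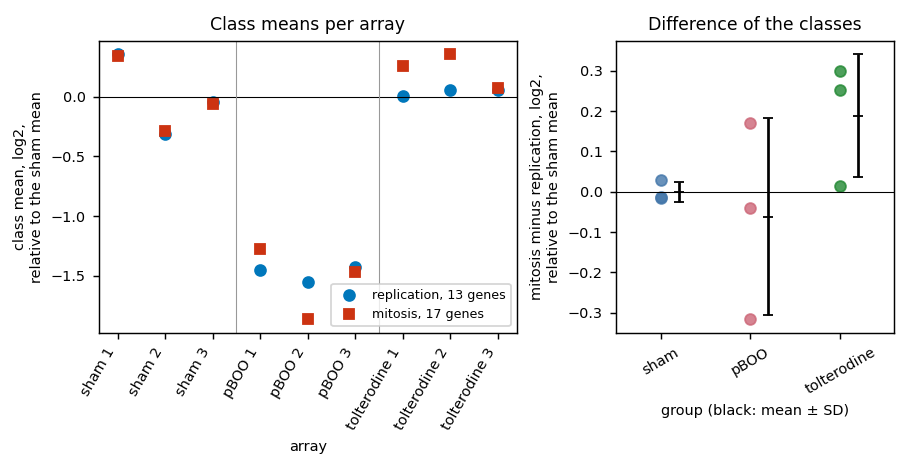
The left panel gives the mean of the 13 replication and 17 mitosis genes per array, in log2 units relative to the sham mean; the right panel gives the mitosis mean minus the replication mean per array, with group mean and SD in black. Both classes drop on the pBOO arrays, and the differences between them overlap among groups, from -0.32 (pBOO 2) to 0.30 (tolterodine 2).

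With tolterodine, 29 of the 35 members were higher than in untreated pBOO and 1, Ccnd1, was lower. Over all genes, 26% passed as higher and 15.3% as lower, so 62.9% of the passing genes were higher, or 52.6% with quantile normalization. The medians were 1.42 for replication and 1.96 for mitosis genes, against 0.11 for all genes. The arrays of the groups did not overlap for 29 members that were higher and 1 that was lower, against 36.7% and 22% of all genes. This comparison uses the same pBOO arrays as the one with sham, so opposite values of the same genes in both are not independent, and pBOO and tolterodine arrays shared no slide, so slide and group cannot be told apart here except through the sham arrays.

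Birc5 was 2.82 higher (SE 0.24, adjusted p = 4.48e-05) and Gins1 2.75 higher (SE 0.18, adjusted p = 1.55e-05) on the log2 scale, which are 7.07-fold and 6.73-fold. Plk1, Cenpa and Ttk were higher by 2.45, 2.41 and 2.40, and Tk1, Cdc6 and Cdc45 by 2.35, 2.03 and 1.95. Ccne1 was higher by 1.90 and Chek1 by 1.53. In the Mcm ring the differences were 1.80 for Mcm3, 1.22 for Mcm6, 1.04 for Mcm4, 0.84 for Mcm2 and 0.51 for Mcm7. The Mcm7 difference (SE 0.17, adjusted p = 0.0364) no longer passed without any 1 of the pBOO arrays (adjusted p = 0.0707, 0.0808 and 0.0957 without pBOO 1, 2 and 3), without sham 3 (adjusted p = 0.0546) or without tolterodine 1 or 3 (adjusted p = 0.0823 and 0.102). With all arrays, it did not pass with scaling to the array median (0.45, adjusted p = 0.0734) or with normexp (0.39, adjusted p = 0.0714). With no filter on dim probes it did not pass either (adjusted p = 0.0537). Mcm7 has the smallest differences of the called replication genes in both comparisons. Ccnd1 was lower, at -0.44 (SE 0.15, adjusted p = 0.0387); with slide as a fixed block this was -0.01, and leaving out any 1 array other than sham 1 or sham 2 raised its adjusted p to between 0.0519 and 0.115, so that it no longer passed. Aurkb was 1.53 higher and was at 0.61 with normexp background correction, where it did not pass (adjusted p = 0.0728). With normexp Cenpa was at 0.93, Cdc45 at 1.14 and Chek1 at 0.75, and all 3 passed (adjusted p = 0.00763, 0.00109 and 0.0285). With slide as a fixed block the differences of Mcm4, Mcm6, Mcm7, Aurkb and Chek1 were larger, at 1.66, 2.06, 0.89, 2.32 and 2.67. That block leaves sham 1 alone against pBOO. Sham 1 was the highest sham array for 12 of 13 replication and 15 of 17 mitosis genes. With probes averaged the Mcm2 difference was 1.35.

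The members not passing between tolterodine and pBOO were Rrm1, Cdc20, Cdc25b, Cdkn1a and Cdkn2c. Cdc20 was at 0.53 (SE 0.33, adjusted p = 0.228), and without tolterodine 3 it was at 0.97 and passed (adjusted p = 0.00414). Rrm1 was at 0.78 (SE 0.40, adjusted p = 0.149) and passed without sham 2 (adjusted p = 0.0472). Cdc25b was at -0.09, Cdkn1a at 0.16 and Cdkn2c at 0.30.

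Between tolterodine and sham, 0 of the 35 members passed in limma, and 3 had an unadjusted p under 0.05 (Mad2l1, Cdkn1a and Cdkn2c). Over all genes 17.8% passed as higher and 6.59% as lower, so 73.0% of the passing genes were higher, or 58.1% with quantile normalization and 49.9% with scaling to the array median. Scaling to the median moved the median of all genes from 0.09 to -0.05, of replication genes from -0.10 to -0.24 and of mitosis genes from 0.25 to 0.11. On the main scale the medians were -0.10 for replication and 0.25 for mitosis genes, against 0.09 for all genes. Values below 0 were found for 8 of 13 replication and 2 of 17 mitosis genes, against 4617 of all 11049 genes. Without sham 1 the medians were 0.13 for replication and 0.47 for mitosis genes, against 0.12 for all genes. A p that misses the threshold does not show equal levels, and the 95% interval was -0.20 to 0.63 for Gins1 (0.22, adjusted p = 0.421), -0.34 to 0.74 for Birc5 (0.20, adjusted p = 0.571) and -0.43 to 0.51 for Tk1 (0.04, adjusted p = 0.911). For 3 members all tolterodine arrays lay above all sham arrays, against 27.8% of all genes. They were Mad2l1 at 0.36 (adjusted p = 0.0672), Cdkn1a at 0.54 (adjusted p = 0.0709) and Cdkn2c at 0.59 (adjusted p = 0.0851). Mad2l1 and Cdkn2c passed with slide as a fixed block (adjusted p = 0.0196 and 0.0359), Mad2l1, Cdkn1a and Cdkn2c with slide as a random block (adjusted p = 0.0168, 0.0294 and 0.0202), Cdkn1a with quantile normalization (adjusted p = 0.0339) and with the replicate block (adjusted p = 0.0346), and Cdkn2c with flagged spots kept (adjusted p = 0.0334). The other Cdkn1a probe was at 0.11 (adjusted p = 0.564). The less bright Mcm3 probe was lower, at -0.55, and passed (adjusted p = 0.0337), while the probe that stands for the gene was at -0.18. The other Cdc25b probe was higher, at 0.90, and passed (adjusted p = 0.0171), and with probes averaged Cdc25b was at 0.61 and passed (adjusted p = 0.0344).

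These counts differed when fewer arrays were used. Without sham 1 over the remaining 8 arrays, 3 of 34 members passed as higher, Foxm1 (0.41), Mad2l1 (0.47) and Cdkn1a (0.68), against 23.3% of all genes. Within the slide that held tolterodine 1 and 2 with sham 2 and 3, which leaves out tolterodine 3 as well as sham 1, 17 of 34 members were higher with tolterodine, against 32.2% of all genes tested there, and 0 were lower, against 21.6%. They were 13 mitosis genes, 2 replication genes (Gins1 and Rrm2), Chek1 and Cdkn1a. The median was 0.13 for replication and 0.47 for mitosis genes. Ccnb1 was at 0.74, Kif11 at 0.72, Rrm2 at 0.66 and Gins1 at 0.29 (adjusted p = 0.0115, 0.00946, 0.00577 and 0.0443), with 2 arrays a group. Without tolterodine 3 alone, 1 member passed as higher (Cdc25b, 0.55, adjusted p = 0.0226).

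Other genes of the same pathways, from lists of 42 replication, 50 mitosis, 17 G1, 6 CDK inhibitor and 19 p53 target genes, give the setting. Of 36 measured replication genes outside the 40, 26 fell and 2 rose in pBOO, with a median of -0.77. Orc1, the origin recognition subunit known to vary with the cell cycle, was well above background on all sham arrays and on no pBOO array, and was at least 4.22-fold lower (adjusted p = 0.000202). Mcm10, a replication initiation factor, was well above background on 2 sham arrays and no pBOO array and was at least 1.83-fold lower (adjusted p = 0.000333). The genes of this list that rose were Orc5 (0.47), another origin recognition subunit, and Cdc7, the kinase that fires origins. Cdc7 was well above background on no sham array and was at least 1.70-fold higher in pBOO (adjusted p = 0.00071). These 2 genes were named after their values were seen. Bounds set a group's mean against the lowest signal called well above background on each array of the dim group, or the gene's own signal if higher.

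Of 36 measured mitosis genes outside the 40, 30 fell and 1, Prc1, rose, with a median of -1.32. Mybl2, a transcription factor that acts with the mitotic programme, was at least 3.65-fold lower and well above background on no pBOO array (adjusted p = 0.000306). Cdca3, a trigger of mitotic entry, fell by 2.17 (SE 0.24, adjusted p = 0.000211). Prc1, which bundles microtubules of the central spindle, rose by 0.81 (SE 0.19, adjusted p = 0.00829) and was also named after its value was seen. With genes dim throughout a group set at their bounds, the medians were -0.76 for replication and -1.32 for mitosis genes.

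For the lists outside the S phase and mitosis machinery, the counts can be read against the 20.8% higher and 21.7% lower of all genes. Of 13 measured G1 regulators 2 rose and 3 fell, with a median of -0.20. The genes that rose were Ccnd2 (cyclin D2), by 1.56 (SE 0.13, adjusted p = 0.000227, over 2 sham and 2 pBOO arrays without a flag), and the retinoblastoma gene Rb1, by 1.07 (SE 0.19, adjusted p = 0.00259). Of 5 other measured CDK inhibitors, Cdkn1b (p27) rose by 1.07 (SE 0.15, adjusted p = 0.000747) and Cdkn2a fell by 1.77 (SE 0.18, adjusted p = 0.000149), with a median of -0.30. Of 17 measured p53 targets 3 rose and 3 fell, with a median of -0.15. Sesn2, a stress-induced regulator of growth signalling, rose by 1.11 (SE 0.28, adjusted p = 0.0128). Pmaip1 (Noxa) was well above background on 1 sham array and no pBOO array and was at least 1.45-fold lower (adjusted p = 0.0193).

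With tolterodine against pBOO, the same lists had 25 higher and 1 lower of 36 replication genes, 28 higher and 1 lower of 36 mitosis genes, 5 and 2 of 13 G1 regulators, 2 and 0 of 5 CDK inhibitors and 4 and 0 of 17 p53 targets, against 26% higher and 15.3% lower of all genes. Ccnd2 and Rb1 were lower, at -1.40 and -1.06 (adjusted p = 0.000214 and 0.00285). Against sham, 3 replication genes were higher and 1 lower, 4 mitosis genes higher and 2 lower, and 6 of 17 p53 targets higher and 0 lower, against 17.8% higher and 6.59% lower of all genes. Cdkn1b was 0.73 higher than in sham (adjusted p = 0.01) and did not pass against pBOO (-0.34, adjusted p = 0.104).

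**Figure D5:**
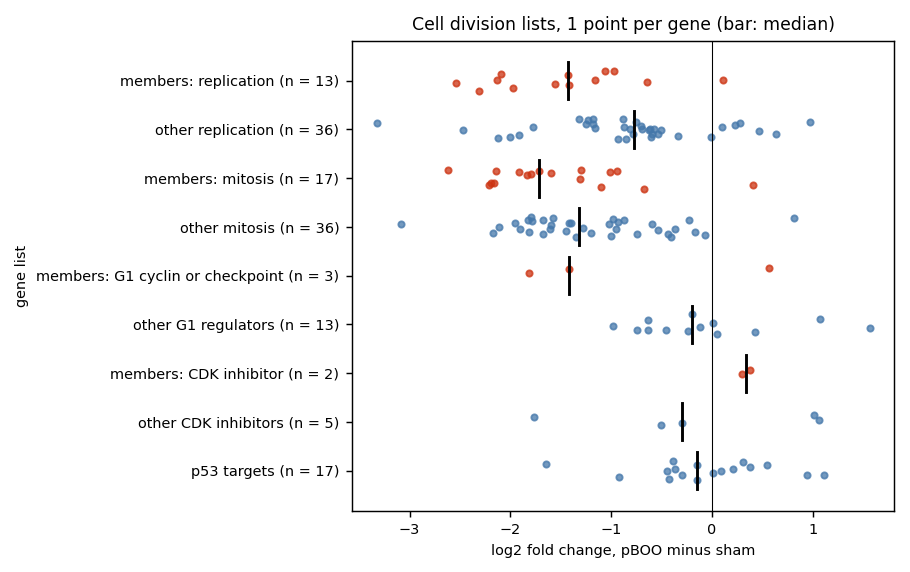
Each point is the log2 fold change of 1 gene for pBOO minus sham, by list, with members in red, other genes of the pathways in blue and a bar at the median. The replication and mitosis lists lie mostly left of 0, with medians from -1.71 to -0.77, while the G1, inhibitor and p53 lists spread to both sides; genes dim throughout a group (Orc1, Mcm10, Mybl2 and others) are drawn at their fitted value.

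Macrophage and neutrophil marker sums were lowest in pBOO and highest with tolterodine, smooth muscle, fibroblast and endothelial sums were higher in pBOO than in sham, and the urothelial sum was below the sham range in pBOO and with tolterodine. The summed linear level of 10 macrophage markers, in units of the 75th percentile, was 28.3 to 37.9 in sham, 15.0 to 16.3 in pBOO and 65.7 to 76.2 with tolterodine. Of 11 measured macrophage markers 8 fell in pBOO and 9 were higher with tolterodine than in sham. Over all genes, 21.7% were lower and 20.8% higher in pBOO than in sham. With tolterodine against sham, 17.8% were higher and 6.59% lower, and the marker counts here can be read against these shares. The sum of 4 neutrophil markers was 1.76 to 2.83, 0.210 to 0.247 and 4.09 to 4.88; all 4 fell in pBOO, where Csf3r and Cxcr2 were well above background on no array. The sum of 6 lymphocyte markers was 1.26 to 1.44, 0.960 to 1.19 and 1.78 to 2.11, with 1 of 6 lower in pBOO and Cd3e well above background only with tolterodine. The sum of 7 urothelial markers was 38.7 to 40.9, 16.1 to 33.8 and 24.4 to 27.8, with 6 of 11 lower in pBOO. Krt7, Krt14, Krt18 and Cdh1 had flagged values and are not in this sum. With tolterodine against sham the urothelial markers were mixed, with 4 of 11 lower, 1 (Krt14, 0.74) higher and 6 not passing. The sum of 6 smooth muscle markers was 57.6 to 75.2, 92.2 to 105 and 60.2 to 95.7, with 6 of 7 higher in pBOO. Most of this sum came from the brightest marker, Acta2, which did not pass in pBOO (0.30, adjusted p = 0.243 in limma). With tolterodine against pBOO, 6 of 7 were lower, against 15.3% of all genes. The sum of 3 fibroblast markers was 11.8 to 15.8, 17.2 to 20.7 and 16.6 to 22.4, and that of 5 endothelial markers 2.99 to 3.04, 3.42 to 5.64 and 3.28 to 3.71, with 2 of 4 and 3 of 5 higher in pBOO. For the macrophage, neutrophil and lymphocyte sums the tolterodine arrays lay above all sham arrays. The class means of the members with tolterodine lay above sham 2 and sham 3 in both classes. They lay below sham 1, except tolterodine 2 in mitosis. Sham 1 was also the highest sham array for the macrophage and neutrophil sums (37.9 and 2.83) and the lowest for the lymphocyte sum (1.26). The part of these cell types in the members' changes was not tested.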

How the data were processed

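Bladder RNA was hybridised to 9 Agilent arrays with 1 colour, 3 per group by title. The deposited values are spot intensities, background-subtracted and detrended, and not normalized between arrays, per the file headers, which name Feature Extraction 11.0.1.1; the submitters' processing notes name version 9.1. Quality flags, also deposited, are of another kind, 0 or 1 per spot for non-uniformity, outliers, saturation and signal well above background. The deposited raw median signal and background, also intensities, served normexp, with an offset of 50 added to every value. An added constant makes the log2 differences of dim spots smaller by construction.

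Levels are log2 processed signal minus the array's 75th percentile over 42877 non-control spots. Flagged spots (4.66% to 6.31%) were set to missing, and 0 spots were saturated. A probe needed to be well above background on at least 3 of 9 arrays and unflagged on at least 2 arrays a group. Accessions matched 18005 of 30367 probes to RefSeq symbols (GRCr8), and the brightest probe stood for a gene, which left 11049 genes. One limma fit over the 9 arrays gave the 3 comparisons, two-sided, with Benjamini-Hochberg adjustment at 0.05 (limma 3.58.1 in R 4.3.3, tables read with data.table version 1.17.8); it was tested on simulated data. The median SE was 0.171.

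The members and lists were chosen with earlier results of these data known. Values per array are given for the 4 most changed members of the replication and mitosis classes, for members outside the shared direction or not passing, and for Ccnb2; of each pathway list the 2 most changed genes are named. Arrays with the same scan time in the file headers were taken to share a slide. Alternatives were normalization, background, filters, probe averaging, slide and replicate blocks, single slides, arrays left out and exchanged group names.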

Additional observations from a re-analysis of the deposited data

How the results depend on the processing

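The falls of the members in pBOO and their rises with tolterodine kept their direction in every alternative run on the titled groups. No member that passed in the main fit changed direction. Cdkn1a, which did not pass there, ran from -0.02 to 0.80 for pBOO minus sham and passed at 0.80, with quantile normalization. For pBOO minus sham, members passing as higher were 2 with quantile normalization, with probes averaged and with only the 2 groups compared. They were 0 with slide as a fixed block. Over all genes, 2251, 2326 and 2300 of 11049 passed as higher with quantile normalization, probes averaged and slide as a fixed block. With only the 2 groups compared 2152 of 11146 did. Genes passing were 3026 with normexp and 2907 within 1 slide, against 4693. The replication and mitosis medians were -1.19 and -1.10 with normexp, -1.83 and -2.11 with slide as a fixed block and within 1 slide, and -1.63 for replication with slide as a random block. The fixed block and the single slide give the same medians because both leave sham 1 alone against pBOO.

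For tolterodine minus pBOO, members passing as lower were 0 with normexp, with no filter on dim probes, with slide as a fixed or random block and with the replicate block, against 1 (Ccnd1). Genes passing were 3000 with normexp, against 4564. The medians were 1.14 and 1.35 with normexp, 2.06 and 2.74 with slide as a fixed block and 1.69 and 2.45 with slide as a random block.

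For tolterodine minus sham, members passing as higher were 1 with quantile normalization, flagged spots kept, probes averaged and the replicate block. They were 6 with slide as a fixed block, 4 with slide as a random block and 17 within 1 slide. Over all genes, 2754 and 2782 of 11049 passed as higher with slide as a fixed and random block, and 3425 of 10627 within 1 slide. With quantile normalization, probes averaged and the replicate block 1411, 2007 and 1752 of 11049 did, and with flagged spots kept 2038 of 11638. Genes passing were 961 with normexp, 4486 and 4279 with slide as a fixed and random block and 5724 within 1 slide, against 2693. The replication median was 0.13 with slide as a fixed block and within 1 slide, against -0.10.

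Leaving out 1 array at a time gave 3362 to 5055 genes passing, 0 to 2 members higher, 29 to 30 lower and medians of -1.57 to -1.29 and -1.96 to -1.52 for pBOO minus sham. It gave 3377 to 5212 genes, 28 to 30 members higher, 0 to 1 lower and medians of 1.35 to 1.52 and 1.70 to 2.21 for tolterodine minus pBOO. It gave 1380 to 3743 genes, 0 to 3 members higher, 0 lower and medians of -0.23 to 0.13 and 0.10 to 0.47 for tolterodine minus sham.

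With the names of sham and pBOO exchanged, the medians were 1.43 and 1.71 for pBOO minus sham, -0.10 and 0.25 for tolterodine minus pBOO and 1.42 and 1.96 for tolterodine minus sham, by construction. Replicate numbers did not pair the arrays, with correlations of deviations between same-numbered arrays from -0.08 to 0.18, so the replicate block shares only a number. Dim members (Rrm1, Aurkb, Cenpa) are limited by signal over background. The offset of 50 in normexp makes log2 differences of dim genes smaller by construction, and its share in the smaller normexp values was not measured. Apart from that offset, the exchange, whose effect is its construction, and the smaller numbers of arrays, the cause of these differences was not tested.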
